A study of Homo sapiens with 4 samples.

Results

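The data are m5C peaks on human chromosome 6 in PANC-1, an established pancreatic cancer cell line. Peaks are stretches of RNA that an antibody against 5-methylcytosine (m5C), a methylated RNA base, pulled down over input RNA. Every peak that either of the 2 deposited lists places on chromosome 6 was taken, except 4 plus-strand peaks per list in 2 short stretches of the major histocompatibility complex (MHC), which the rule leaves out. That gave 427 of 8919 peaks, namely 146 of 3177 in replicate 1 and 281 of 5742 in replicate 2. They were divided by hg19 position into the histone gene cluster (26 to 28 Mb), the MHC (28.5 to 33.5 Mb) and the rest of the chromosome. The cells of all samples had been exposed to extracellular vesicles from cancer-associated fibroblasts, and no group without vesicles is labelled. The 2 immunoprecipitated and 2 input samples form 2 replicates, each with 1 list, and nothing says that the replicates were separate cultures. Sequencing depth is unknown, because peaks were deposited without their read counts.

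m5C is placed on RNA by methyltransferases of the NSUN family and by TRDMT1, and transfer RNAs and ribosomal RNA are its best-known carriers. The histone gene cluster of chromosome 6 holds most human replication-dependent histone genes, which are short and lack introns, and whose messages end in a stem-loop in place of a poly(A) tail. The MHC runs from the class I genes, whose products present peptides to killer T cells, through the class III stretch of complement and cytokine genes to the class II genes of antigen-presenting cells. No gene is given beside a peak in the lists and positions were not converted between builds. Peaks are therefore named by hg19 position, and no sequence is shown. For context by gene order, RefSeq's table of the newer GRCh38 build lists 68 protein-coding genes from H1-1 to H2BC17, the ends of the histone cluster. These comprised 53 histone genes with a median length of 487 bp and 15 others, among them 6 butyrophilin (BTN) genes. The same stretch held 98 of the 155 tRNA genes listed for chromosome 6, while both peak lists are labelled mRNA. From TRIM27 to PHF1, a stretch taken from general knowledge to lie within the MHC limits used here, the table lists 166 protein-coding genes, with 19 HLA genes and 14 olfactory receptor genes among them.

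Of the 3 regions, the MHC had the most peaks per Mb in both lists, and the histone gene cluster held few peaks. The MHC held 24 peaks in replicate 1 and 25 in replicate 2, or 4.80 peaks per Mb (exact 95% Poisson interval 3.08 to 7.14) and 5.0 per Mb (3.24 to 7.38). The histone gene cluster held 1 peak in replicate 1 and 4 in replicate 2, or 0.5 per Mb (0.0127 to 2.79) and 2.0 per Mb (0.545 to 5.12). The rest of the chromosome, 164 Mb between its first and last listed peak, held 121 and 252 peaks, or 0.740 per Mb (0.614 to 0.884) and 1.54 per Mb (1.36 to 1.74). Peak density in the MHC was thus 6.49 times that of the rest in replicate 1 (exact 95% interval 4.0 to 10.1) and 3.25 times in replicate 2 (2.06 to 4.90). For the histone cluster the ratio to the rest was 0.676 (0.0170 to 3.84) and 1.30 (0.351 to 3.37), intervals too wide to place the cluster above or below the rest. All these intervals cover the counting of peaks alone and take peaks as independent. Neighbouring peaks are not independent. Linking same-strand peaks over gaps of up to 10 kb left 19 MHC clusters in replicate 1 and 22 in replicate 2.

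**Figure D1:**
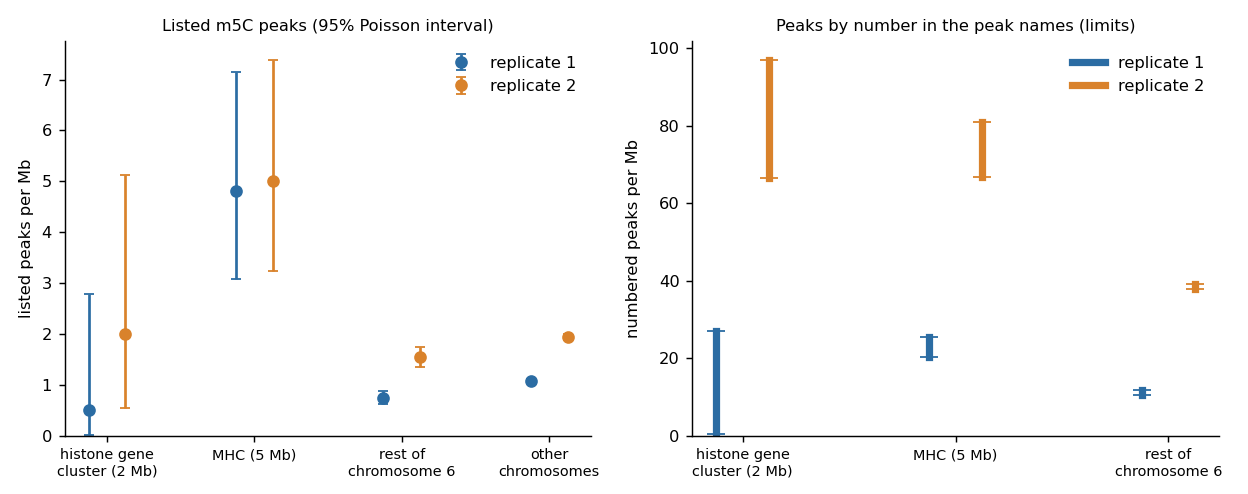
Left, listed m5C peaks per Mb (points) with exact 95% Poisson intervals (bars) in each region of chromosome 6 and on the other chromosomes, for replicate 1 (blue) and replicate 2 (orange). Right, the lower and upper limit of peaks per Mb counted by the numbers in the peak names. The MHC stands highest among listed peaks at 4.80 and 5.0 per Mb, while numbered peaks of replicate 2 are as dense in the histone gene cluster as in the MHC.

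Peaks were also set beside genes. The RefSeq stretch from H1-1 to H2BC17 held 6.48% of the protein-coding genes of chromosome 6, while the histone window held 0.685% of the chromosome's peaks in replicate 1 and 1.42% in replicate 2. The stretch from TRIM27 to PHF1 held 15.8% of the genes, and the MHC window 16.4% of the peaks in replicate 1 and 8.90% in replicate 2. The median protein-coding gene measured 505 bp in the stretch from H1-1 to H2BC17 and 6406 bp in that from TRIM27 to PHF1. Shares of genes take no account of this length. Gene stretches and peak windows come from different builds and have no common ends, so these shares are set side by side without a test. The MHC count hardly differed between the lists although the second list is longer: replicate 2 had 1.04 times the replicate 1 peaks in the MHC, 2.08 times in the rest of chromosome 6 and 1.80 times on the other chromosomes. The MHC's share of the 2 lists did not differ detectably (adjusted p = 0.197 in Fisher's exact test, given in full below).

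In windows of 5 Mb laid out from the MHC, the MHC window was the fullest of 35 on chromosome 6 in replicate 1. In replicate 2 a single window held more, the one from 38.5 to 43.5 Mb with 32 peaks. The median chromosome 6 window held 3 peaks in replicate 1 and 8 in replicate 2. Across all chromosomes, 15 of 619 such windows (2.42%) held more replicate 1 peaks than the MHC, and 45 (7.27%) held more replicate 2 peaks, so windows denser than the MHC occurred elsewhere in the genome. Peaks were also frequent just after the MHC, with 13, 10 and 12 replicate 1 peaks in the next 3 windows and 18, 32 and 15 replicate 2 peaks. The window just before it, which contains the histone gene cluster, held 3 and 10. In windows of 2 Mb, the histone gene cluster was ordinary: 582 of 1508 windows held more than its 1 replicate 1 peak and 632 held none, while 437 held more than its 4 replicate 2 peaks and 963 held fewer.

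**Figure D2:**
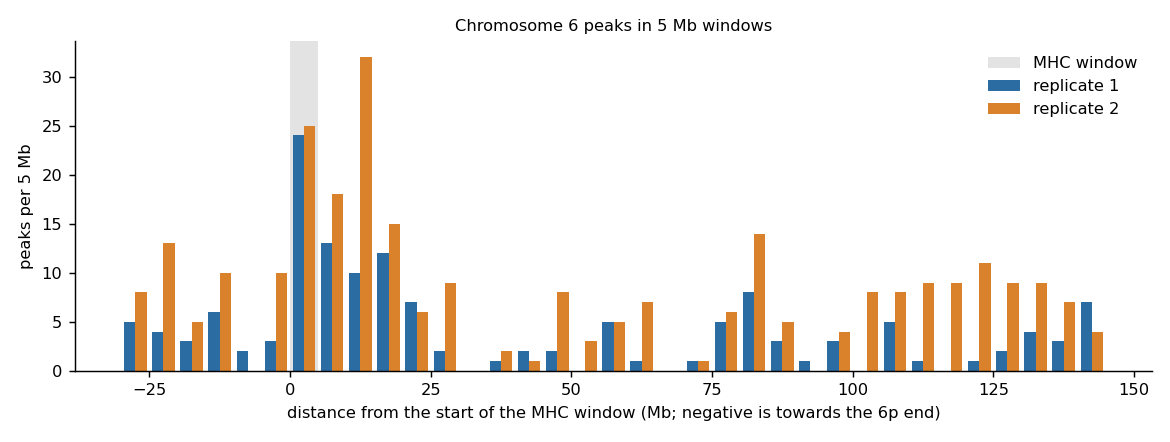
Number of peaks (vertical axis) in 5 Mb windows along chromosome 6, by distance in Mb from the start of the MHC window (horizontal axis), for replicate 1 (blue) and replicate 2 (orange). The grey band is the MHC window, with 24 and 25 peaks, and the tallest bar is the replicate 2 window with 32 peaks.

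The peak names carry numbers that rise with position, and the lists hold a part of the numbered peaks. These numbers give a second view of the histone gene cluster. In replicate 2 the window spanned at least 133 and at most 194 numbers, or 66.5 to 97.0 numbered peaks per Mb. The MHC spanned 334 to 405 numbers, or 66.8 to 81.0 per Mb, and the rest of chromosome 6 38.0 to 39.3 per Mb. Of the numbered peaks of replicate 2, 2.06% to 3.01% were listed in the histone gene cluster, 7.16% to 8.68% in the MHC and 3.92% to 4.05% in the rest. Over the whole replicate 2 list at most 4.63% were listed, with the highest listed number taken as the total. Numbered peaks of replicate 2 were therefore about as dense in the histone gene cluster as in the MHC, and a smaller part of them was listed. Between the listed peaks that end at 26508760 and start at 27821624, a stretch of 1.31 Mb, 128 numbers were passed over. In replicate 1 the limits of the histone window, 1 to 54 numbers, are too wide to place it. Its stretch of 1.79 Mb without a listed peak after 26458355, which runs to 28251784 and so past the window, passed over 40 numbers. In the MHC 21.9% to 27.5% of the replicate 1 numbers were listed, and in the rest 6.31% to 6.97%. Over the whole replicate 1 list the share, taken in the same way, was at most 8.85%. None of these differences in listed share was tested. The peaks left out by the rule are counted with the MHC here, because they hold numbers too. Both lists are labelled mRNA, but how numbered peaks were selected for them is not given in the sources used here.

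The 5 listed peaks of the histone gene cluster all lay on the plus strand, and 4 of them lay between 26453159 and 26508760. No peak was assigned to a gene, so none of them is known to lie on a histone gene. Replicate 1 had its single peak from 26458154 to 26458355 (202 bp), with a score of 3100, and replicate 2 had a peak around it from 26458132 to 26458370 (239 bp) with a score of 335.93. This was 1 of the 14 positions on the chromosome where the lists overlapped. Replicate 2 had a further peak 4.55 kb before it on the same strand, from 26453159 to 26453583 (425 bp, score 454.51), and a short one from 26508729 to 26508760 (32 bp, score 932.92). The last, from 27821624 to 27821920 (297 bp, score 274.84), stood 1.31 Mb away from these. Scores are the values the authors deposited for each peak, on an unstated scale, and are read within a list. Their percentiles in replicate 2, the share of that list's peaks with a lower score, counting ties in the middle, were 68.2%, 56.7%, 88.5% and 49.3% in order of position. Just outside the window, both lists had a plus-strand peak about 252 kb past its end, from 28251784 to 28251986 in replicate 1 (score 3100) and from 28251635 to 28251905 in replicate 2 (score 179.87).

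Within the MHC the 2 lists were fullest in different stretches. By steps of 1 Mb from 28.5 Mb, replicate 1 had 0, 3, 4, 11 and 6 peaks and replicate 2 had 1, 3, 11, 6 and 4. The fullest step was thus 31.5 to 32.5 Mb in replicate 1 and 30.5 to 31.5 Mb in replicate 2, and no test of this difference was made. By strand, 16 of 24 replicate 1 peaks lay on the plus strand (66.7%, 95% Wilson interval 46.7 to 82.0) and 10 of 25 in replicate 2 (40.0%, 23.4 to 59.3), with intervals that overlap. In the rest of the chromosome the plus strand held 60.3% of peaks in replicate 1 (51.4 to 68.6) and 56.7% in replicate 2 (50.6 to 62.7), against 50.1% (48.3 to 51.9) and 51.6% (50.3 to 52.9) on the other chromosomes.

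Many MHC peaks of replicate 1 had that list's most frequent score. The score 3100 was given to 16 of its 24 MHC peaks (66.7%, 46.7 to 82.0), to 49 of 121 in the rest of the chromosome (40.5%, 32.2 to 49.4) and to the single peak of the histone window. In the whole replicate 1 list 52.1% of peaks scored 3100 or more, a share inside the MHC interval and above the interval of the rest. The first 3 of the 16 by position, all on the plus strand, ran from 29556454 to 29556653, from 29910516 to 29910729 and from 29913342 to 29913622. The latter 2 measured 214 and 281 bp, and the nearest replicate 2 peaks on their strand lay 637453 and 634560 bp away. The other 8 MHC peaks scored from 19.22 to 2973.72, and the lowest 2 were neighbours, from 31975046 to 31975162 (43.42) and from 31975506 to 31975626 (19.22). Seen over the MHC, the median score of replicate 1 was 3100, and in the rest it was 1772.59, at percentiles of 73.7% and 38.7% of the list. The whole list's median was also 3100, at the same tied percentile of 73.7%, so the MHC median was the ordinary value of the list.

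MHC scores of replicate 2 lay near the middle of its list. Their median was 259.37, at the 47.0th percentile, and the median in the rest was 304.61, at the 53.0th percentile. The score 3100 was given to 1 of 25 MHC peaks and to 2 of 252 peaks in the rest of the chromosome. In the whole list 0.679% of peaks scored 3100 or more. The MHC peak with that score ran from 32006093 to 32006292 on the plus strand, and the next highest from 32017047 to 32017182 (2151.84) and from 31122273 to 31122534 (1764.61), both on the minus strand. In the rest of the chromosome the highest scores of replicate 2 were 3100 from 107811326 to 107811916, 3100 from 126300850 to 126301232 and 2704.11 from 157100106 to 157100605, all on the plus strand. None of these 6 overlapped a replicate 1 peak, and in the whole replicate 2 list 7.49% did. The highest rest peaks of replicate 1 were a tie of 49 at 3100, of which the first by position began at 3415986, 4032717 and 6145120.

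The median MHC peak measured 183 bp in replicate 1 (interquartile range 119 to 267) and 200.0 bp in replicate 2 (114 to 262). In the rest of chromosome 6 the medians were 200.0 bp (103 to 260.0) and 127 bp (66.8 to 217), against 166 and 142 bp on the other chromosomes. The MHC median was thus above that of the rest in replicate 2 and below it in replicate 1, and the difference was not tested. Peaks under 50 bp made up 2 of 24 and 1 of 25 in the MHC (8.33%, 2.32 to 25.8, and 4.0%, 0.710 to 19.5). In the rest they made up 14.9% (9.62 to 22.3) and 16.7% (12.6 to 21.8). The widest MHC peaks measured 507 bp in replicate 1, from 33168927 to 33169433, and 537 bp in replicate 2, from 31130682 to 31131218. The widest peak of the chromosome measured 1347 bp, from 7579508 to 7580854 on the plus strand in replicate 2, with a low score of 126.30 for its list (22.9th percentile). At the other end, replicate 1 listed 2 peaks of a single base on the minus strand, at 42946007 and 52847503, both with the score 3100. The narrowest replicate 2 peak of the chromosome measured 10 bp.

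**Figure D3:**
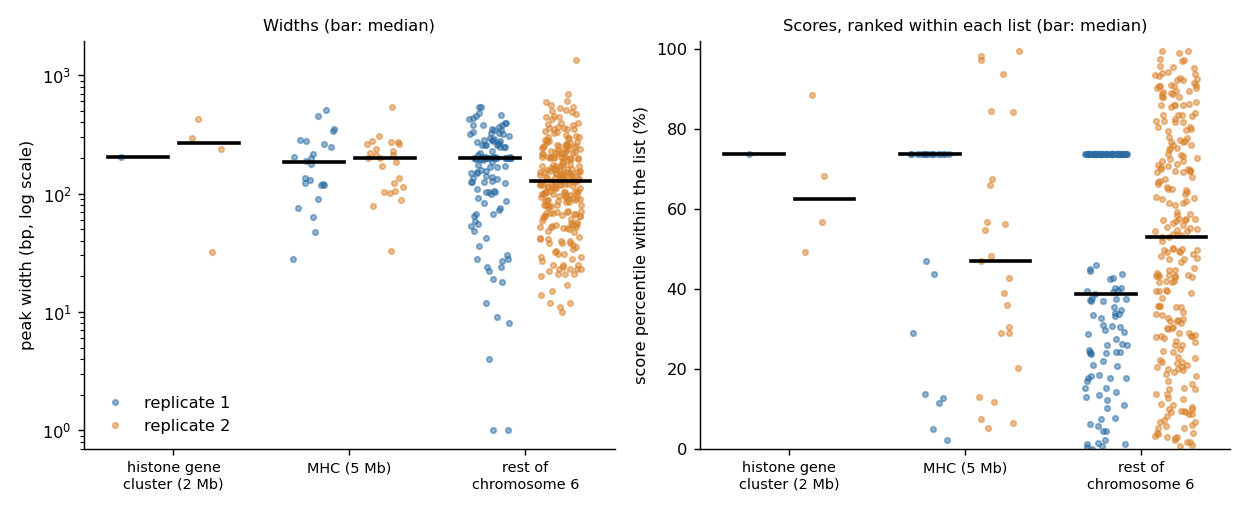
Left, width in bp on a log scale, and right, score percentile within the peak's own list, for each peak (points) of the histone gene cluster, the MHC and the rest of chromosome 6, with black bars at the medians and replicate 1 in blue and replicate 2 in orange. The row of replicate 1 points at 73.7% is the shared score of 3100, held by 16 of 24 MHC peaks and 49 of 121 peaks in the rest.

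Few MHC peaks were found in both lists. Sharing asked for an overlap of at least 1 bp with a same-strand peak of the other list. In the MHC 1 of 24 replicate 1 peaks was shared (4.17%, 0.739 to 20.2) and 1 of 25 replicate 2 peaks (4.0%, 0.710 to 19.5). In the rest of the chromosome 12 of 121 were shared (9.92%, 5.76 to 16.5) and 12 of 252 (4.76%, 2.74 to 8.14). Over chromosome 6 this made 14 of 146 (9.59%, 5.80 to 15.5) and 14 of 281 (4.98%, 2.99 to 8.19), where the whole lists had 13.6% and 7.49%. The MHC interval includes the whole-list share in each replicate, so no difference was detectable with this number of peaks.

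The shared MHC peak lay on the plus strand, from 32938665 to 32938852 in replicate 1 (188 bp, score 246.23) and from 32938757 to 32938974 in replicate 2 (218 bp, score 160.74). The 2 overlapped over 96 bp. Both scores were low for their lists, at the 13.8th and 30.5th percentile. A further replicate 1 peak of similar score (206.07) followed from 32945534 to 32945782.

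Distances to the other list were counted too, with overlapping peaks included at each distance. A replicate 2 peak on the same strand lay within 1 kb of 2 of the 24 MHC peaks of replicate 1 (8.33%, 2.32 to 25.8), within 10 kb of 7 (29.2%, 14.9 to 49.2) and within 100 kb of 17 (70.8%, 50.8 to 85.1). In the rest of the chromosome these shares were 13.2% (8.31 to 20.4), 27.3% (20.1 to 35.8) and 47.1% (38.4 to 56.0). On the other chromosomes they were 17.3%, 28.8% and 58.0%. More peaks per Mb by themselves bring peaks of 2 lists closer, so the share within 100 kb is read beside the density above and not as agreement between the lists.

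The near pairs of the MHC are given with each peak's score, which is read within its own list. The closest lay on the minus strand with 481 bp between a replicate 1 peak from 30624168 to 30624286 (score 3100) and a replicate 2 peak from 30624768 to 30624869 (259.37). On the plus strand, 1489 bp separated the replicate 2 peak from 32006093 to 32006292 and the replicate 1 peak from 32007782 to 32007903, and both scored 3100. Minus-strand peaks at 31855556 to 31855643 in replicate 2 (426.09) and 31857245 to 31857379 in replicate 1 (2473.96) were 1601 bp apart. Gaps of 2873 and 4214 bp separated the plus-strand pairs at 31588450 (replicate 2, score 90.0) and 31591509 (replicate 1, 3100), and at 31378528 (replicate 1, 168.62) and 31382789 (replicate 2, 86.01).

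**Figure D4:**
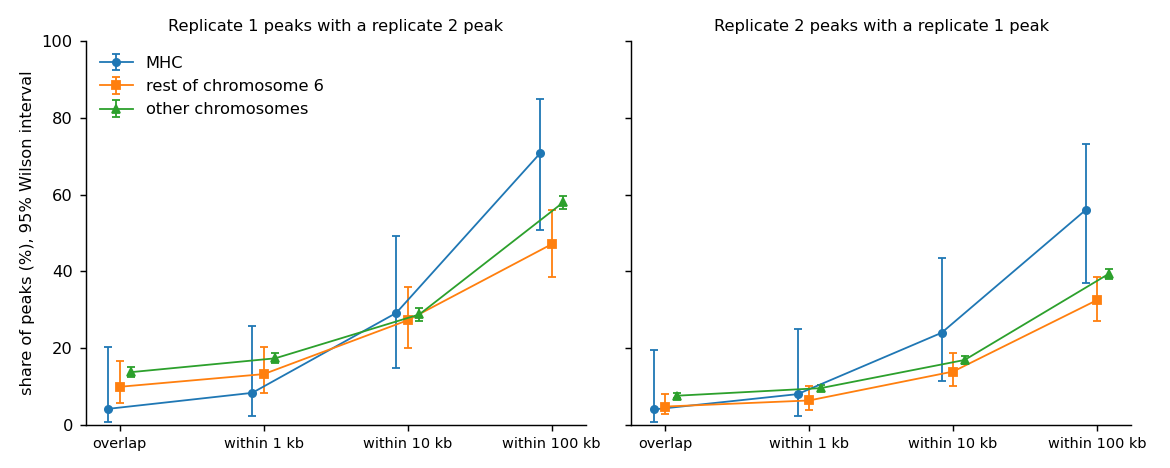
Share of peaks (vertical axis, percent, with 95% Wilson intervals) that have a peak of the other list on the same strand, by overlap and within 1, 10 and 100 kb (horizontal axis), for replicate 1 peaks (left) and replicate 2 peaks (right). The MHC (circles) starts at 4.17% and 4.0% and reaches 70.8% and 56.0% within 100 kb, and its wide intervals come from 24 and 25 peaks.

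The 14 overlapping pairs of chromosome 6 were spread over it, with 1 in the histone gene cluster, 1 in the MHC and 12 elsewhere. Of these, 10 were on the plus strand. The overlap measured from 1 to 364 bp, with a median of 100 bp, and in 6 pairs it covered at least 50% of both peaks. The 2 peaks of a pair began or ended on the same base in 6 of the 14 pairs, against 227 of the 435 pairs of the whole lists. One pair was identical at both ends, on the minus strand from 52132663 to 52132766 (104 bp), with scores of 141.40 and 235.28. The longest overlap, on the minus strand from 35465651, differed by 1 bp in width (364 and 365 bp), and its scores were low in both lists, 398.69 and 55.13.

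Replicate 1 gave 3100 to 6 of its 14 paired peaks, where 52.1% of its whole list scored 3100 or more, and replicate 2 gave it to 0 of 14, where 0.679% of its list did. In replicate 2, 7 of the 14 scored above the list's median. The pair with the highest mean percentile lay on the plus strand from 43970418 in replicate 1 (282 bp, score 3100) and from 43970500 in replicate 2 (444 bp, score 1072.73, 91.2nd percentile). The next was the single-base replicate 1 peak at 42946007, which met the first base of a 257 bp minus-strand peak of replicate 2 with a score of 357.34. The pair in the histone gene cluster followed, with a mean percentile of 65.2%. These mean percentiles count each 3100 of replicate 1 as 73.7%, the middle of that list's tie. Replicate 2 ranked 2 other pairs high where replicate 1 ranked them low, on the plus strand from 168227619 (score 1297.92 in replicate 2 and 230.93 in replicate 1) and from 76459099 (649.33 and 664.55). On the minus strand from 108385400 and on the plus strand from 44104086, replicate 1 gave 3100, which is its list's median score. Replicate 2 gave these pairs low scores of 74.51 and 69.39. The remaining pairs began in replicate 1 at 1611804 (scores 37.96 in replicate 1 and 352.30 in replicate 2), 7246673 (1658.06 and 342.75) and 41889224 (1982.11 and 91.94), all on the plus strand.

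**Figure D5:**
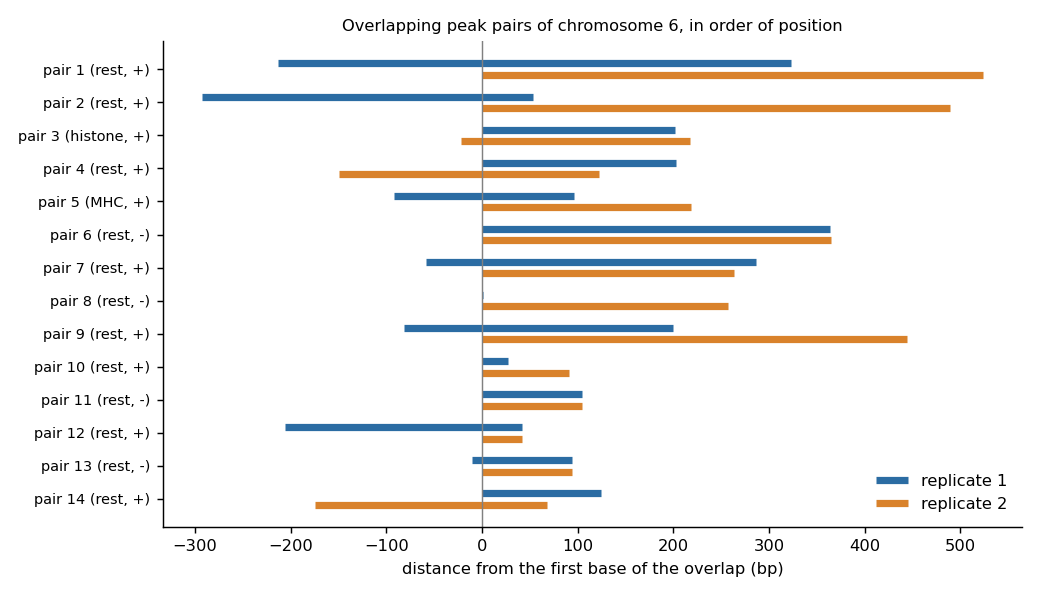
The 14 overlapping pairs of chromosome 6 in order of position, each drawn as its replicate 1 peak (blue) above its replicate 2 peak (orange), by distance in bp from the first base of the overlap (horizontal axis). Pairs 6 and 11 nearly or fully coincide, pair 8 overlaps over 1 bp, and the histone and MHC pairs are pairs 3 and 5.

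Linking same-strand peaks of both lists over gaps of up to 10 kb gave 343 clusters on chromosome 6, of which 279 held a single peak. Peaks of both lists met in 6 of the 19 MHC clusters with replicate 1 peaks (31.6%), which is 27.3% of the 22 with replicate 2 peaks. In the rest they met in 28 clusters, 25.5% of those with replicate 1 peaks and 12.6% of those with replicate 2 peaks. Over chromosome 6 the shares were 26.9% and 14.1%, and whole-list shares of this kind were not computed. More peaks per Mb by themselves link more peaks of 2 lists, so the MHC shares are not read as agreement between the lists. Clusters of 4 or more peaks were rare. The MHC had 1, on the plus strand from 31588450 to 31600616, with 3 replicate 1 peaks scoring 3100, 3100 and 2973.72 and 1 replicate 2 peak scoring 90.0. Elsewhere 3 were found, on the plus strand from 33634906 to 33646616 (2 and 2 peaks), on the plus strand from 44104086 to 44123071 (3 and 2) and on the minus strand from 108375771 to 108395525 (2 and 2).

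The lists were also compared directly, by asking whether each region took the same share of both. The MHC took 0.755% of replicate 1 (0.508 to 1.12) and 0.435% of replicate 2 (0.295 to 0.642), a log2 ratio of 0.79. Fisher's exact test gave a two-sided p = 0.0531 and, after Benjamini-Hochberg adjustment over 26 units (the 3 regions and 23 other chromosomes), an adjusted p = 0.197. The histone gene cluster took 0.0315% and 0.0697% (adjusted p = 0.848 in Fisher's exact test) and the rest of chromosome 6 took 3.81% and 4.39% (adjusted p = 0.442 in Fisher's exact test). None of the 3 regions passed the threshold, and of all 26 units 0 did (0.0%), with 6 at an unadjusted p under 0.05. This test compares 2 lists and takes peaks as independent. It says nothing about the vesicles.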

How the data were processed

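Total RNA of PANC-1 cells was immunoprecipitated with an m5C antibody or kept as input, per the labels, in 2 replicates. The labels tie each deposited list to an immunoprecipitated sample and its input, so peaks were made per replicate. Per the submitters' processing notes, reads were trimmed with cutadapt 1.9.3 and the build is hg19. Peak names begin with MACS, a peak caller, per the names in the files. Both lists are labelled mRNA, and what that label selected is not stated. For the aligner, the thresholds and any later selection of peaks, each of which can change what is listed, the entry is: not given in the sources used here. The authors deposited a score per peak, of unstated scale, and no count, fold or coverage. It was ranked within a list and never scaled between lists.

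Starts were read as 0-based and are printed 1-based. Tables were handled with pandas 2.3.3 in Python 3.11.15, tests and intervals came from scipy 1.17.1 with adjustment in statsmodels 0.14.6, and plots from matplotlib 3.10.9. Overlaps and distances are to any peak of the other list. Density used the distance from the first to the last listed peak of a chromosome. Intervals are at 95%: Wilson for shares, exact Poisson for densities and exact binomial for their ratios. Fisher's exact tests over 26 units were tested on simulated lists whose peaks were drawn independently. Such lists cannot show how the test behaves where neighbouring peaks are not independent. Comparisons between regions of a list carry no test, because peaks of 1 list are not replicates. Named peaks are each overlapping pair in the histone and MHC windows, the best-ranked 10 pairs elsewhere (the remaining 2 were added), the 3 highest-scoring and the widest peak per region and list, clusters of 4 or more peaks, and each peak of the histone window. Near pairs, narrow peaks, the lowest-scoring neighbours, windows and peak numbers were added once values had been seen. The members and lists were chosen with earlier results of these data known. Exon class and peak sequence need an hg19 genome and were not analysed here.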

Additional observations from a re-analysis of the deposited data

How the results depend on the processing

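The lists hold 24 and 25 peaks in the MHC window and 1 and 4 in the histone window, so single peaks decide the shares there. The MHC stayed denser than the rest of chromosome 6 in 8 of 8 recomputed values (4 alternatives in each list), by 2.75 to 10.7 times. The shared part of replicate 1 fell with stricter matching, by construction. The median-score filter and the lists of equal length drop low-scoring peaks instead. Equal length kept the 3177 highest-scoring peaks of replicate 2. For the MHC the shared part was 0% with a reciprocal overlap of 50% and with centres within 100 bp. It was also 0% with peaks that reached their own list's median score and with lists of equal length. In each case the 1 shared MHC pair was lost, whose scores lay at the 13.8th and 30.5th percentile of their lists. Taken as 3 divided by the number of peaks, and not as a Wilson limit, a count of 0 allows up to 12.5% of 24 peaks. For the 16 peaks left by the score filter it allows up to 18.8%. In that order the share was 4.13%, 4.13%, 4.08% and 4.96% in the rest, and 4.11%, 4.11%, 4.55% and 4.79% for chromosome 6. Whole-list shares under these settings were not computed, so whether 0% is unusual for these lists was not tested. With the score filter, density per Mb was 2.20 for the MHC in replicate 2, and 0.300 and 0.801 for the rest in replicates 1 and 2. With peaks of 50 bp or more it was 1.28 for the rest in replicate 2. Limits moved inward by 500 kb left 0 peaks in the histone window in replicate 1 (density 0 per Mb) and 1 in replicate 2, with a width of 32 bp and a percentile of 88.5%. The other 59 recomputed values stayed within the spread or on the same side of the threshold, and Fisher's exact test called 0 units in each of 4 alternatives. No paired analysis was possible because each replicate has 1 list made from its immunoprecipitated and input samples together. For the same reason leaving out a replicate leaves the other list's own values, which the report gives, and no shared peaks.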
